A study of Homo sapiens with 4 samples.

Results

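USP (ubiquitin-specific protease) genes were followed by their transcripts in MCF10A cells, an immortalised human mammary epithelial line, on 4 Affymetrix U133 Plus 2.0 arrays. Members were taken by symbol: USP, a number and at most 1 further letter in the platform's probe annotation, without USP9Y. This gave 45 of the 19775 genes with a probe set naming 1 gene, covered by 129 probe sets. Family members without such a probe set are not covered. Each gene is represented by its brightest probe set.

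On 2 arrays, labelled double knockdown, the cells expressed short hairpin RNAs against CBL and CBLB, and on 2 control arrays a control hairpin. All cells grew in DFCI-1 medium and were harvested under normal growth conditions. Whether the replicates were separate cultures or clones is not in the labels, so a p-value here reflects the spread between arrays, which may be technical. The number of arrays limits the precision of every value.

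Ubiquitin is attached to proteins by a cascade of activating, conjugating and ligating enzymes, and CBL and CBLB are ligases that mark activated receptor tyrosine kinases. Deubiquitinases cut ubiquitin off again, and the USP genes form their most numerous family in human cells. Members differ in their substrates: some act on sorted receptors, some at the proteasome, some on histones or DNA repair proteins, and a few have lost the catalytic residues.

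The targeted genes were read first. CBL had intensities of 31.1 and 29.0 on the labelled double knockdown arrays, against 125.9 and 84.4 on the controls (log2 change -1.37 ± 0.15 SE, limma adjusted p = 0.00138). CBLB was not lower: it read 94.8 and 99.5 on the labelled double knockdown arrays, against 64.3 and 70.05 on the controls (log2 change 0.45 ± 0.09 SE, limma adjusted p = 0.0148). The CBLB call was lost without labelled double knockdown replicate 1 (adjusted p = 0.0867) or replicate 2 (0.133). CBLC, the remaining CBL gene, read 287.8 and 287.0 on the labelled double knockdown arrays, against 194.4 and 218.2 on the controls (log2 change 0.45, adjusted p = 0.0161), a call lost without control replicate 1 (0.0501) or labelled double knockdown replicate 1 (0.111) or 2 (0.119), and with probe sets of 1 transcript only (log2 change 0.03). Since CBLB goes against its label, the arrays are named by their label throughout. All 8 measured epithelial markers lay above the brightness minimum defined below, while 2 of 3 leukocyte, 1 of 4 endothelial and 1 of 5 fibroblast markers did. Their summed intensity was 22429 to 23617 on the labelled double knockdown arrays and 30409 to 31370 on the controls for epithelial markers, 50.4 to 55.8 and 50.2 to 54.1 for leukocyte markers, 49.3 to 52.3 and 56.1 to 57.0 for endothelial markers, and 92.5 to 112 and 163 to 164 for fibroblast markers. The fibroblast markers were led by DCN, with a mean intensity of 96.9. The part of these shifts in the values below was not tested.

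Most USP transcripts differed little. A gene was tested when its mean intensity reached the median of all probe set values, 14.6, which kept 41 of the 45 members. At an adjusted p under 0.05 in the test over all 12965 genes, 2 members rose, USP31 and USP53, and none fell. That is 4.88% of the tested members, against 16% of all genes tested (9.40% higher, 6.59% lower). At an unadjusted p under 0.05 there were 9 members, 4 higher and 5 lower, or 22.0%, against 30.6% of all genes. Without labelled double knockdown replicate 1 or replicate 2 no member was called, when 677 and 531 genes were called in all. Without control replicate 1 the call was USP31 alone, and without control replicate 2 USP31, USP5 and USP54 were called, the last 2 as lower. The groups did not overlap for 24 members, 13 higher and 11 lower, or 58.5%, against 57.5% of all genes. The median log2 change was -0.01 over the tested members and -0.01 over all genes, and the median size of the change, whatever its sign, was 0.15 for members and 0.14 for all genes. Of the members, 85.4% had a change of under 0.25 on the log2 scale, against 72.1% of all genes. The difference between these shares was not tested.

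**Figure D1:**
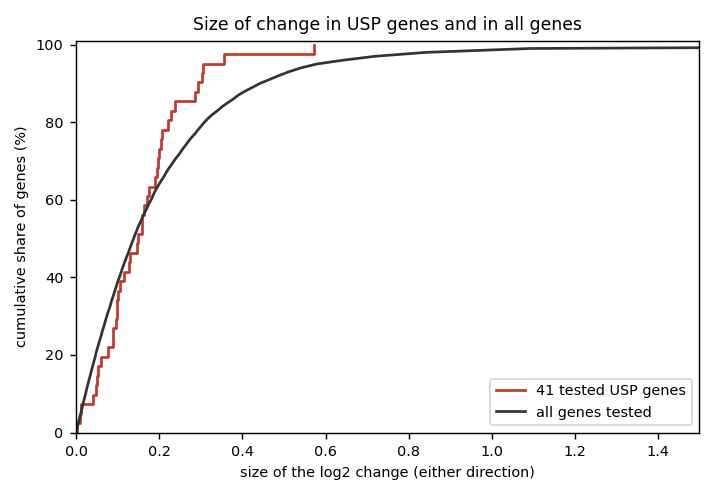
Cumulative share of genes (vertical axis, %) by size of the log2 change in either direction (horizontal axis), for the 41 tested USP genes (red steps) and all 12965 genes tested (black line). The lines run close together up to a size of about 0.2, and beyond it the USP line ends at 0.57 (USP31) while the line of all genes continues to 3.08, outside the axis.

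The precision of the estimates was read from the brightest probe set of each member. The 95% interval of a member's log2 change was 0.23 wide on either side at the median, from 0.19 to 0.30. limma draws the variance of each gene towards that of all genes tested, so these widths are partly shared and not specific to a member. For all 41 members the interval lay within 1 of zero, a change of under 2-fold, and for 35 it lay within 0.5. Among the 39 members that were not called, the lowest bound was -0.61, for USP5, and the highest 0.51, for USP45. These intervals are not adjusted for the number of genes, and they apply to log2(intensity + 16), a scale that understates changes of dim genes. They rest on a spread between arrays that may be technical, and they cover the brightest probe sets only. Dimmer probe sets above the minimum lay outside for several members. USP8 had 0.45 on one, against an upper bound of 0.37, and USP1 had -0.43, against a lower bound of -0.29. The called USP31 had 0.09 on one, against a lower bound of 0.34. The same held for USP2, USP24, USP34, USP36, USP42, USP46 and USP48.

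**Figure D2:**
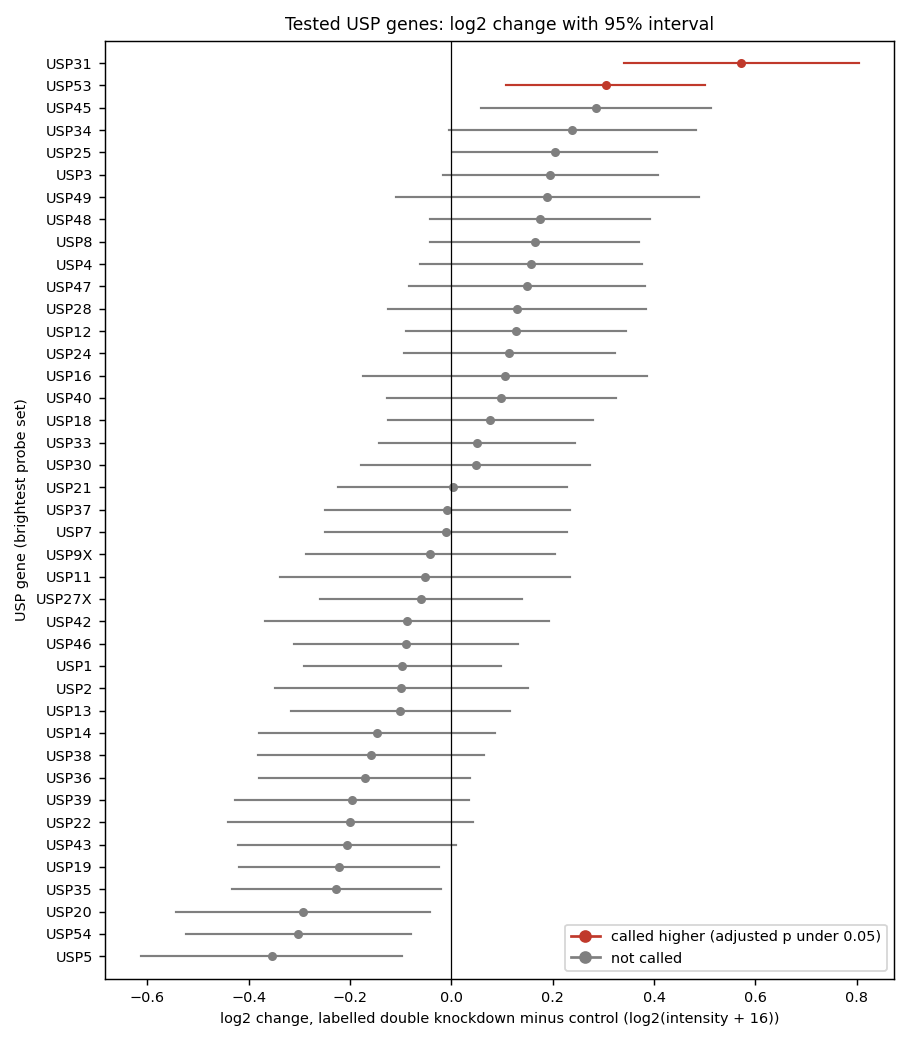
Log2 change on the labelled double knockdown arrays relative to the controls (horizontal axis, on log2(intensity + 16)) for each tested USP gene, with points for the estimate and lines for the 95% interval of limma. USP31 (0.57) and USP53 (0.30), in red, were called higher, and the other 39, in grey, were not called and ranged down to -0.35 (USP5).

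USP31, reported to restrain NF-kB signalling, had the largest change. Its brightest probe set read 316.7 and 294.9 on the labelled double knockdown arrays, against 215.6 and 186.1 on the controls. The means were 306 ± 15.4 and 201 ± 20.8 (SD, n = 2 each), a 1.52-fold rise without the constant and 1.49-fold on intensity + 16 (log2 change 0.57 ± 0.10 SE, limma adjusted p = 0.00944). USP31 has 3 further probe sets above the minimum. The next brightest read 257.7 and 289.3 on the labelled double knockdown arrays and 203.0 and 194.2 on the controls (log2 change 0.43). Another read 94.7 and 112.7 on the labelled double knockdown arrays and 90.2 and 101.7 on the controls (log2 change 0.09), and here the groups overlapped. The dimmest read 69.8 and 67.3 on the labelled double knockdown arrays and 52.9 and 50.3 on the controls (log2 change 0.32). Another probe set lay below the minimum (log2 change -0.02), and averaged over all 5 the log2 change was 0.28, with adjusted p = 0.0283. The call was lost without labelled double knockdown replicate 1 (adjusted p = 0.0799) or replicate 2 (0.0538), at log2 changes of 0.52 and 0.62.

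USP53, a protein of tight junctions whose protease domain was long classed as inactive, rose by less, and the estimates of its probe sets above the minimum lay closer together. Its brightest probe set read 283.5 and 299.0 on the labelled double knockdown arrays, against 233.5 and 232.0 on the controls. The means were 291 ± 11.0 and 233 ± 1.06 (SD, n = 2 each), a 1.25-fold rise without the constant and 1.23-fold on intensity + 16 (log2 change 0.30 ± 0.09 SE, limma adjusted p = 0.0483). A second probe set read 170.9 and 178.3 on the labelled double knockdown arrays and 142.3 and 128.3 on the controls (log2 change 0.33). The dimmer one read 41.4 and 43.4 on the labelled double knockdown arrays and 31.3 and 26.7 on the controls (log2 change 0.38). On each of these 3 probe sets both labelled double knockdown arrays lay above both controls, and the fourth lay below the brightness minimum. The adjusted p stood just under the threshold and the call was lost whichever array was left out: 0.0887 and 0.0854 without control replicate 1 or 2, and 0.187 and 0.314 without labelled double knockdown replicate 1 or 2. It was also lost with a constant of 1 in place of 16 (0.0863) and with an intensity trend in the variance (0.0608).

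The promoter of USP53 is shown as the regulatory sequence, among those at hand, that belongs to a member that rose. The 250 bases before its start lie on the plus strand at chr4:119212463-119212712 of GRCh38.p14 (RefSeq), and capitals mark a CCAAT box, read here on the opposite strand as ATTGG, which begins 71 bases before the start.
USP53: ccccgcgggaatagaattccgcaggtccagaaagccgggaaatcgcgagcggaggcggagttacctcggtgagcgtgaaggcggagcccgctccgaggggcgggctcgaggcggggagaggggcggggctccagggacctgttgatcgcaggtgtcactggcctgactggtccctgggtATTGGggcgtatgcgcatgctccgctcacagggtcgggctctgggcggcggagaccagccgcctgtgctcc
G and C make up 69.2% of these bases. A promoter window was found for 33 of the tested members, and USP31 was not among them. In windows of 300 bases, on either strand, none of the 33 members held the ER stress element (CCAAT and CCACG with 9 bases between), TGACGTGG (unfolded protein response element), TGATGCAA (an element of C/EBP and ATF factors) or TTTCGCGC (E2F). Some genes have several windows: the 33 members have 45, and all 27305 genes have 35116. These motifs occur in at least 1 window of 0.0916%, 0.927%, 1.08% and 0.63% of all genes. CCAAT alone, which is also the first part of the ER stress element, was searched after values were seen and was held by 12 of the 33 members (36.4%), against 39.7% of all genes. A match is a run of letters and not a bound site.

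**Figure D3:**
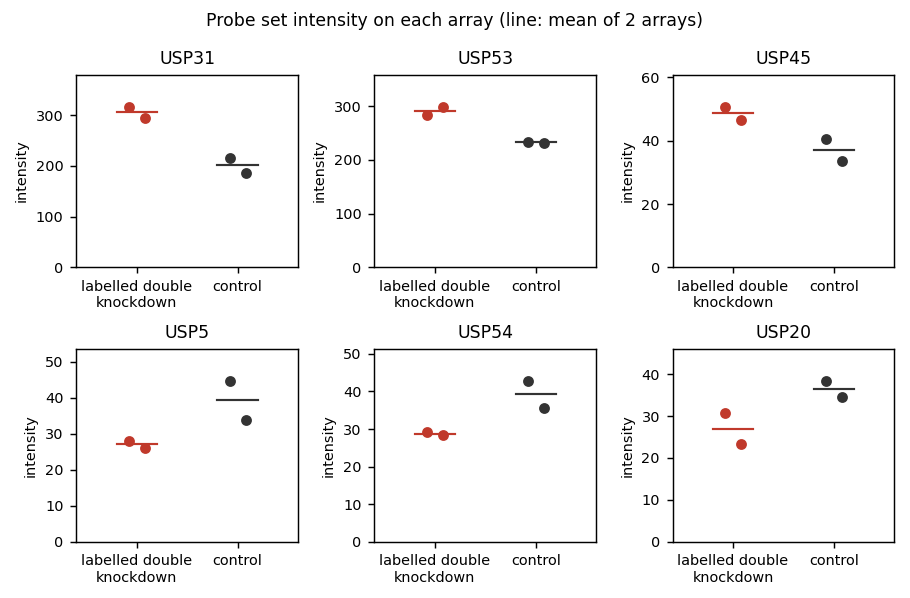
Intensity of the brightest probe set on each array (vertical axis from 0, linear) for the 3 USP genes with the smallest p among the higher ones (USP31, USP53, USP45) and among the lower ones (USP5, USP54, USP20). Points are arrays and lines are means of 2 arrays, with the labelled double knockdown left of the control. In each of the 6 genes the groups do not overlap, but USP31 and USP53 alone of these passed the test. The 3 lower genes are dim, with mean intensities of 33.2, 34.0 and 31.7.

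Members that act on receptors and endosomes were not called. USP8, which trims ubiquitin from receptors such as EGFR at the endosome, had intensities of 284.5 and 272.8 on the labelled double knockdown arrays, against 237.2 and 257.0 on the controls (log2 change 0.16, 95% interval -0.04 to 0.37, limma adjusted p = 0.261). Its second probe set read 132.3 and 139.1 on the labelled double knockdown arrays and 80.0 and 112.9 on the controls, a log2 change of 0.45. On both probe sets the labelled double knockdown arrays were the higher ones, but the controls of the second differed widely from each other. USP9X, a large member that also acts on endocytic adaptors, read 657 and 638 on the labelled double knockdown arrays, between control values of 731 and 608 (log2 change -0.04, interval -0.29 to 0.21). USP2, reported to stabilise EGFR, was close to the brightness minimum, at 17.1 and 20.1 on the labelled double knockdown arrays and 24.2 and 18.0 on the controls (log2 change -0.10). Its other probe set above the minimum had the opposite sign, with 21.9 and 18.2 on the labelled double knockdown arrays and 16.4 and 14.5 on the controls (log2 change 0.19), and there the groups did not overlap. USP12 and USP46, close relatives that need the WD-repeat protein WDR48 for activity, had log2 changes of 0.13 and -0.09, and WDR48 itself of 0.04 (95% interval -0.16 to 0.23). Further USP46 probe sets above the minimum had -0.12 and 0.20, and at 0.20 the groups did not overlap. RNF41, a ubiquitin ligase that USP8 stabilises, rose to 57.7 and 60.4 on the labelled double knockdown arrays, against 40.96 and 42.5 on the controls (log2 change 0.38 ± 0.08 SE, limma adjusted p = 0.0226). It was picked after its value was seen, and its call was lost without control replicate 1 or either labelled double knockdown array (adjusted p up to 0.188), and with probe sets of 1 transcript only (log2 change 0.13, 0.455). STAM, an endosomal sorting protein that binds USP8, had a log2 change of 0.29 (adjusted p = 0.0578).

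The 3 members tied to the proteasome and to free ubiquitin chains had estimates below zero, and none was called. USP14, which sits on the proteasome and shortens chains on its substrates, read 1321 and 1227 on the labelled double knockdown arrays, against 1316 and 1512 on the controls (log2 change -0.15, interval -0.38 to 0.09). Its other probe sets had log2 changes of 0.04 and -0.25. USP5, which takes apart unanchored ubiquitin chains, had the lowest estimate of all members, with 28.0 and 26.1 on the labelled double knockdown arrays, against 44.7 and 33.9 on the controls. Its log2 change was -0.35 ± 0.11 SE with adjusted p = 0.0688, and without the constant its mean was 1.45-fold lower. Control replicate 1 held much of that distance: without it the log2 change was -0.21 (adjusted p = 0.203), and without control replicate 2 it was -0.50 (0.0215). USP5 was dim, at a mean intensity of 33.2, as were 2 other members with lower estimates, USP54 (34.0) and USP20 (31.7). The highest mean was 28.5 among the leukocyte markers and 33.7 among the endothelial markers. USP13, the close relative of USP5, had a log2 change of -0.10 on its brightest probe set and -0.01 and -0.17 on its others above the minimum.

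Among members of the endoplasmic reticulum, the mitochondrion and the hypoxia response, none of 7 was called, with log2 changes between -0.29 and 0.20. USP19, which has a form anchored in the ER membrane, read 157.0 and 154.2 on the labelled double knockdown arrays, against 188.9 and 179.5 on the controls (log2 change -0.22, limma adjusted p = 0.121). Its second probe set differed little, with 35.8 and 33.9 on the labelled double knockdown arrays and 35.9 and 36.4 on the controls (log2 change -0.04). USP20, which binds the VHL ubiquitin ligase, read 30.7 and 23.2 on the labelled double knockdown arrays and 38.4 and 34.6 on the controls (log2 change -0.29, adjusted p = 0.108). Its paralogue USP33 lay at 0.05, with 633 and 615 on the labelled double knockdown arrays and 605 and 599 on the controls. A second USP33 probe set read 75.9 and 82.3 on the labelled double knockdown arrays and 58.7 and 73.1 on the controls (log2 change 0.22). USP35 had a log2 change of -0.23. USP25, reported to oppose the degradation of ER proteins, read 324.7 and 335.2 on the labelled double knockdown arrays, against 294.1 and 274.4 on the controls (log2 change 0.20, adjusted p = 0.158), with 0.37 on the next probe set. USP28, its paralogue, had 0.13, and USP30, which counters mitophagy at the mitochondrial outer membrane, had 0.05.

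The chromatin group covered 7 tested members with log2 changes from -0.20 to 0.20 and no call. USP22, the catalytic subunit of the SAGA deubiquitinase module, read 501.0 and 445.0 on the labelled double knockdown arrays, against 582.0 and 509.3 on the controls (log2 change -0.20, interval -0.44 to 0.04). ATXN7, which anchors that module to SAGA, rose to 65.2 and 68.2 on the labelled double knockdown arrays, against 46.3 and 48.5 on the controls (log2 change 0.38 ± 0.08 SE, limma adjusted p = 0.0220). The ATXN7 call was lost without control replicate 1 or either labelled double knockdown array (adjusted p up to 0.183), and with the mean of its probe sets (0.0590). ENY2 and ATXN7L3, further subunits, had log2 changes of 0.25 and 0.14 and were not called. USP3, which acts on histones H2A and H2B, lay at 1194 on both labelled double knockdown arrays, against 986 and 1099 on the controls (log2 change 0.20). USP16, an H2A deubiquitinase of mitosis, had 0.11 and USP21 had 0.00, while USP42, USP49 and USP27X had -0.09, 0.19 and -0.06. Further probe sets above the minimum had 0.13 and -0.15 for USP16, and -0.42 and -0.01 for USP42. At -0.15 and at -0.42 the groups did not overlap.

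For DNA repair, replication and p53 turnover, 9 members were tested and none was called. USP1, which with WDR48 removes ubiquitin from PCNA and FANCD2, read 466.5 and 462.5 on the labelled double knockdown arrays, against 488.8 and 506.9 on the controls (log2 change -0.10, interval -0.29 to 0.10). A dimmer probe set read 36.5 and 41.9 on the labelled double knockdown arrays and 52.3 and 64.6 on the controls, a log2 change of -0.43. PCNA, the replication clamp that USP1 acts on, fell to 425.8 and 437.3 on the labelled double knockdown arrays, against 819.4 and 785.5 on the controls (log2 change -0.87 ± 0.08 SE, limma adjusted p = 0.000754). FANCI, also among the listed partners, had a log2 change of 0.35 and was not called (adjusted p = 0.128). USP7, which stabilises MDM2, p53, UHRF1 and DNMT1, read 262.6 and 248.7 on the labelled double knockdown arrays, between control values of 279.9 and 236.7 (log2 change -0.01, interval -0.25 to 0.23). UHRF1, a reader of hemimethylated DNA, fell to 88.0 and 83.8 on the labelled double knockdown arrays, against 194.8 and 189.0 on the controls (log2 change -1.03 ± 0.08 SE, adjusted p = 0.000337). DNMT1, the maintenance DNA methyltransferase, fell to 126.3 and 111.4 on the labelled double knockdown arrays, against 187.5 and 165.1 on the controls (log2 change -0.51, adjusted p = 0.0149), and its call was lost without control replicate 1 or either labelled double knockdown array (adjusted p up to 0.134). MDM2 read 1335 and 1322 on the labelled double knockdown arrays, against 1044 and 1108 on the controls (log2 change 0.30, adjusted p = 0.0515). These are transcript values, whereas USP1 and USP7 act on the proteins, which were not measured. USP45, which acts on the repair nuclease subunit ERCC1, read 50.8 and 46.5 on the labelled double knockdown arrays, against 40.5 and 33.8 on the controls (log2 change 0.29 ± 0.10 SE, adjusted p = 0.0904). A dimmer USP45 probe set had 0.06, and there the groups overlapped. USP24, USP47 and USP48 had log2 changes of 0.11, 0.15 and 0.17, while USP11, USP37 and USP43 had -0.05, -0.01 and -0.21.

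In the group of signalling members, USP31 was the call among 5 tested. USP34, which acts on axin in the WNT pathway, read 273.8 and 308.8 on the labelled double knockdown arrays, against 262.1 and 227.1 on the controls (log2 change 0.24, interval -0.0049 to 0.48, limma adjusted p = 0.171). USP4, USP38 and USP40 had log2 changes of 0.16, -0.16 and 0.10. USP18, the protease that removes ISG15, a ubiquitin-like protein induced by interferon, read 27.7 and 27.9 on the labelled double knockdown arrays, against 24.0 and 27.1 on the controls (log2 change 0.08, interval -0.13 to 0.28).

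Members of the nucleolus, of splicing and with a domain classed as inactive had estimates of both signs. USP54, the closest relative of USP53, read 29.2 and 28.3 on the labelled double knockdown arrays, against 42.8 and 35.7 on the controls (log2 change -0.30 ± 0.10 SE, limma adjusted p = 0.0709), which is opposite in sign to USP53. USP39, a splicing factor without the catalytic residues, had a log2 change of -0.20, and USP36, a nucleolar member, of -0.17. Other USP36 probe sets above the minimum had 0.05, -0.19 and 0.13. Below the brightness minimum lay USP51, USP29, USP44 and USP26, with mean intensities of 10.2, 7.65, 5.24 and 5.07 over the 4 arrays, and these were not tested.

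Probe sets of the same gene gave a further reading of direction, although they share the arrays and are not replicates. Of the 29 members with several probe sets above the minimum, 12 had only higher and 7 only lower estimates, and 10 had estimates of both signs. For 8 of the 29 (27.6%), every such probe set had the groups apart in the same direction, against 26.6% of the 5939 genes with several probe sets above the minimum, so this is close to the background. These members were USP3, USP8, USP24, USP25, USP33 and USP53 higher, and USP1 and USP19 lower. In USP24, for example, the log2 changes were 0.11, 0.23 and 0.36, the larger ones on the dimmer probe sets. Of the 41 tested members, 17 rest on a probe set of a type that can match several transcripts, but USP31 and USP53 do not.

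**Figure D4:**
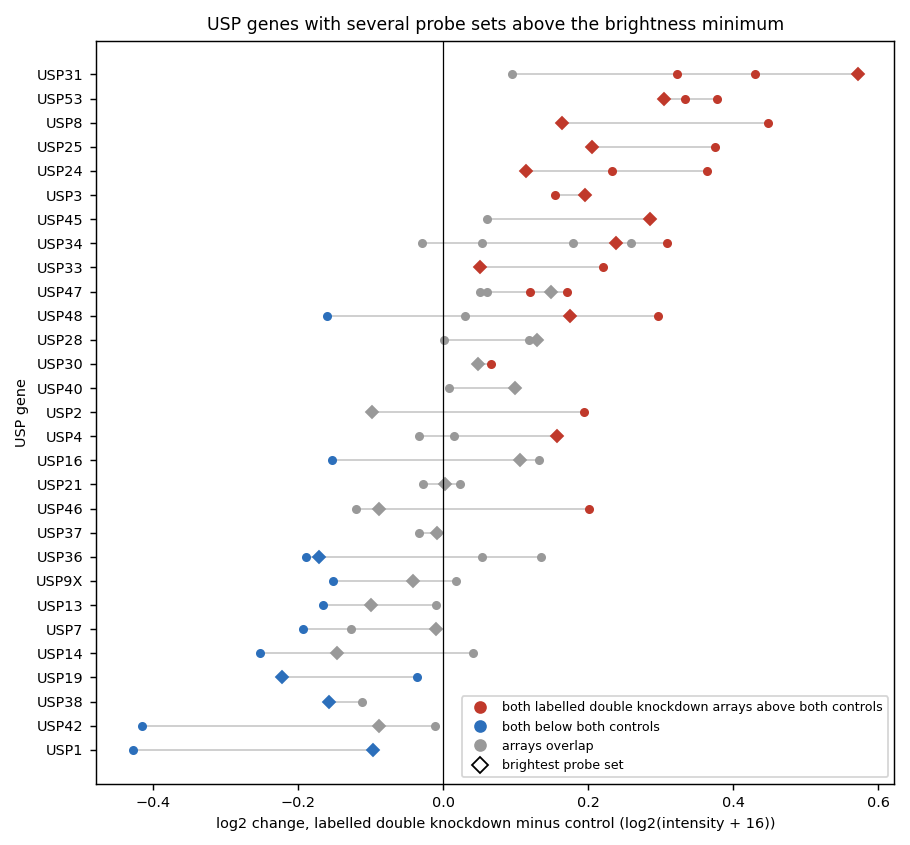
Log2 change (horizontal axis, on log2(intensity + 16)) of every probe set above the brightness minimum, for the 29 USP genes with more than 1. Diamonds mark the brightest probe set, and colour shows whether both labelled double knockdown arrays lay above (red) or below (blue) both controls or overlapped with them (grey). The 3 points of USP53 lie between 0.30 and 0.38, whereas those of USP31 spread from 0.09 to 0.57.

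Other parts of the ubiquitin system were set beside the USP genes as counts. These lists were chosen with earlier results of these data known, so their shares of calls are no test against all genes. Deubiquitinases of other families had 8 calls among 31 tested, 4 higher and 4 lower (25.8%, against 16% of all genes), at a median log2 change of -0.07. Without labelled double knockdown replicate 1 there were 3 calls, without replicate 2 there was 1, and without control replicate 1 there were 5, when 677, 531 and 1624 of all genes were called. OTUD1, an OTU family member, rose to 621.7 and 595.4 on the labelled double knockdown arrays, against 387.7 and 352.0 on the controls (log2 change 0.70 ± 0.09 SE, limma adjusted p = 0.00292), and remained called in each fit without 1 array. PSMD14, the deubiquitinase built into the proteasome lid, fell to 1218 and 1178 on the labelled double knockdown arrays, against 1871 and 1723 on the controls (log2 change -0.58, adjusted p = 0.00599, and 0.0640 without labelled double knockdown replicate 2). MINDY2, VCPIP1 and MYSM1, an H2A deubiquitinase, rose with log2 changes of 0.53, 0.49 and 0.47, and TNFAIP3, the NF-kB inhibitor A20, fell with -0.52. Each of these 4 lost its call without labelled double knockdown replicate 2, at adjusted p up to 0.0815 for MINDY2, 0.122 for VCPIP1, 0.210 for MYSM1 and 0.123 for TNFAIP3 among the fits without 1 array. VCPIP1, MYSM1 and TNFAIP3 also lost it without labelled double knockdown replicate 1, and MYSM1 and TNFAIP3 without control replicate 1. With probe sets of 1 transcript only VCPIP1 had a log2 change of 0.01, with the mean of all probe sets VCPIP1 and MYSM1 lost their calls (adjusted p = 0.0869 and 0.0792), and without the brightness filter MYSM1 and TNFAIP3 lost theirs (0.0753 and 0.0668).

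Binding partners, substrates and regulators of USP proteins had 9 calls among 27 tested, 2 higher and 7 lower (33.3%, against 16% of all genes), at a median of -0.04. There were 3 calls without labelled double knockdown replicate 1 or replicate 2, when 677 and 531 of all genes were called. Besides the genes above, G3BP1, the partner of a USP protein not analysed here and a core of stress granules, fell to 1055 and 1021 on the labelled double knockdown arrays, against 1652 and 1643 on the controls (log2 change -0.66, limma adjusted p = 0.00263). G3BP2, its relative, was also called lower (log2 change -0.37, adjusted p = 0.0266). The G3BP2 call was lost with a constant of 1 and with the mean of its probe sets. It was also lost without control replicate 1 or either labelled double knockdown array. G3BP1 lost its call with the mean of its probe sets, but not when an array was left out. PSMD2, a proteasome base subunit, fell by 0.41 on the log2 scale (adjusted p = 0.0174), and its call was lost without either labelled double knockdown array (up to 0.141). GMPS, which binds USP7, had -0.04 and was not called.

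Genes of ubiquitin and of the ISG15 system had 6 calls among 14 tested, 4 higher and 2 lower (42.9%, against 16% of all genes, 9.40% higher and 6.59% lower), at a median of -0.09. UBA1, the main ubiquitin-activating enzyme, fell to 284.1 and 279.8 on the labelled double knockdown arrays, against 546.3 and 397.9 on the controls (log2 change -0.70 ± 0.14 SE, limma adjusted p = 0.0154). The ISG15-conjugating enzyme UBE2L6, the ISG15 ligase HERC5, the interferon signalling factor IRF9 and the interferon-induced gene IFI6 rose with log2 changes of 0.51, 0.53, 0.54 and 0.59, while OAS1 fell with -0.58. ISG15 itself read 292.5 and 306.2 on the labelled double knockdown arrays, against 360.2 and 467.6 on the controls (log2 change -0.44, adjusted p = 0.0519). Without labelled double knockdown replicate 1 or replicate 2, none of the 14 genes was called, and UBE2L6 also lost its call without control replicate 1. Without the brightness filter UBA1, HERC5, UBE2L6 and IFI6 lost theirs, at adjusted p from 0.0580 to 0.0860.

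**Figure D5:**
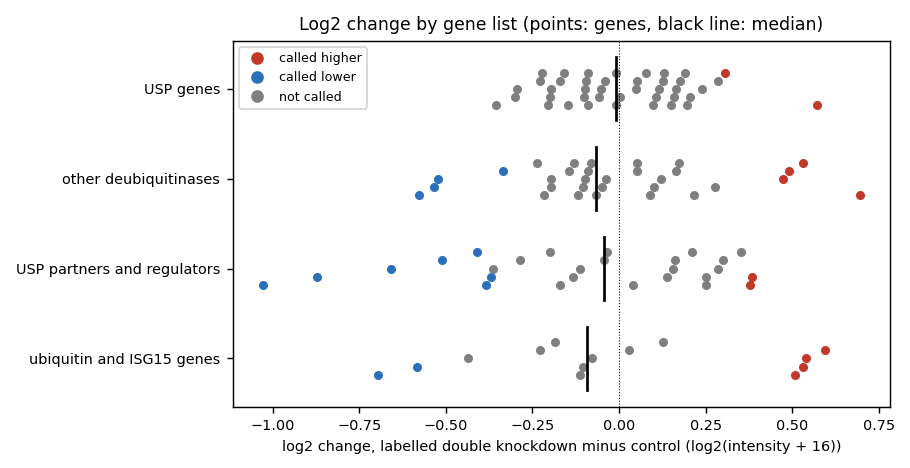
Log2 change (horizontal axis, on log2(intensity + 16)) of each tested gene in 4 lists, USP genes at the top, with the median of each list as a black line. The USP points lie between -0.35 and 0.57 with 2 calls, and calls in both directions appear in each of the other lists, down to -1.03 (UHRF1) and up to 0.70 (OTUD1).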

How the data were processed

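The deposited table holds linear probe set intensity values of 4 arrays, 54675 probe sets, a unit read off their range. The authors' summarisation and normalization are not given in the sources used. Array medians ran from 14.5 to 14.7, and no further normalization was applied. Genes came from the platform annotation: 41091 probe sets named 1 gene, 1801 several and 11721 none, and 62 control probe sets were left out. Of those naming 1 gene, 41037 matched the RefSeq table of GRCh38.p14 by gene identifier, used for current symbols.

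Groups and replicate numbers came from the sample titles. Values were taken as log2(intensity + 16). All 4 arrays were fitted across all 12965 genes with limma 3.58.1 under R 4.3.3 (functions lmFit and eBayes, two-sided tests, no covariate), with Benjamini-Hochberg adjustment over these genes. Every adjusted p is from limma, and an SE is the moderated one. The test was checked on data simulated under its own assumptions, which cannot show effects shared by the genes of an array. Alternatives covered the constant, brightness filter, normalization, probe set choice, variance trend, symbols, a replicate block and each array left out. Named were all members, CBL, CBLB and CBLC, up to 6 called genes of each further list, and partners of members by their role. Outside that rule, RNF41 and some uncalled partners were picked after values were seen. The members and lists were chosen with earlier results of these data known.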

Additional observations from a re-analysis of the deposited data

How the results depend on the processing

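The median log2 change of the USP genes, -0.0081, moved by more than the spread between arrays with the stricter brightness filter (0.075, 28 members), quantile normalization (-0.021) and probe sets of 1 transcript only (-0.052, 31 members). It ranged from -0.039 to 0.056 with 1 array left out. USP calls, 2 with all arrays, fell to 1 with a constant of 1 or an intensity trend (USP53 lost in both), and ranged from 0 to 3 with 1 array left out. Calls over all genes, 2074 with all arrays, ranged from 531 to 2003 with 1 array left out, the lowest without labelled double knockdown replicate 2 and 677 without replicate 1. Other deubiquitinases, 8 calls, had 5 without a brightness filter, 4 with the mean of all probe sets and 3 with probe sets of 1 transcript only, and 1 to 6 with 1 array left out. Partners ranged from 3 to 10 and the ubiquitin and ISG15 genes from 0 to 7 with 1 array left out, the last having 2 calls without a brightness filter.

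Of 631 member estimates under alternatives, 598 kept their direction and side of the threshold, 8 lost a call (USP31 or USP53), 4 gained one (USP5 or USP54) and 21 changed sign. The brightness filters, variance trend, current symbols and replicate block leave a member's log2 change as it is, so no sign could change there. Most members were also uncalled from the start. Sign changes concerned 12 members with log2 changes of at most 0.17 in size: USP48 (-0.16), USP14 (0.041) and USP9X (0.018) with probe sets of 1 transcript only, USP7 with cyclic loess (0.0014), and USP21 with quantile normalization (-0.0055) or the mean of its probe sets (-0.00091). Of 23 called genes of the other lists, 19 lost the call without at least 1 array. UCHL5, not described above, also changed sign with probe sets of 1 transcript only (0.034). With 1 array left out, 10 members changed sign, with ranges of -0.0045 to 0.26 for USP28, -0.22 to 0.022 for USP2, -0.036 to 0.25 for USP16, -0.26 to 0.079 for USP42, -0.031 to 0.13 for USP30, -0.19 to 0.084 for USP11, -0.17 to 0.088 for USP9X, -0.12 to 0.10 for USP7, -0.13 to 0.11 for USP37 and -0.090 to 0.095 for USP21.

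The replicate numbers of the titles are not stated to pair arrays. Deviations of same-numbered arrays from their group means correlated at 0.24 across genes. With the replicate block, 3 USP genes were called, USP5 being added (adjusted p = 0.0418), and 2505 genes in all. The causes of these changes were not tested.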
